A study of Mus musculus with 23 samples.

Results

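Macrophages that had been in oleic acid for 20 h were compared with macrophages that had been in it for 5 h. The comparison takes the 4 arrays labelled oleic acid, 20 h, and the 4 arrays labelled oleic acid, 5 h, which are 8 of the 23 arrays of the series, and covers every gene with a probe set of its own, 19938 genes in all. The cells were macrophages grown from the bone marrow of C57Bl/6 mice, wild type, with macrophage colony-stimulating factor (M-CSF) at 10 ng/mL for 6 days in 10% serum and treated 1 to 3 days after the factor was taken away. All groups used here share that strain, that genotype and that withdrawal of the factor. Oleic acid was given at 250 µM, bound to fatty acid-free bovine serum albumin at 2 fatty acid molecules per albumin, for 5 h (n = 4) or 20 h (n = 4). The vehicle was albumin alone at 125 µM (n = 3), labelled 5 h on the samples and 4 h in the text of the series. Stearic acid at 250 µM on the same albumin, for 5 h (n = 4) and 20 h (n = 4), gave the same time step under a saturated acid. A vehicle group of 20 h is not analysed here, so longer exposure and longer culture cannot be told apart in the change from 5 to 20 h. The labels speak both of replicate wells and of biological replicates, and a p-value here measures only how far the arrays of a group scatter, which may be technical.

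Oleic acid is the commonest monounsaturated fatty acid of animal fat, and stearic acid is the saturated acid of the same chain length. A macrophage takes up fatty acids, binds them to coenzyme A, and either burns them in mitochondria or stores them as triglyceride in lipid droplets, while fatty acids also switch on genes of the nuclear receptors of the PPAR family and, when unsaturated, hold back the SREBP factors that drive lipid synthesis. The inflammatory genes of a macrophage are driven largely by NF-kB, a factor that also switches on its own inhibitors.

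Between 5 and 20 h of oleic acid, genes of inflammation fell, led by the receptor gene Gpr84, the itaconate-producing enzyme gene Acod1 and the lectin receptor gene Clec4e. Olr1, the gene of a scavenger receptor that takes up oxidised lipoprotein, had the longest fall. The Id genes and other genes of the TGF-beta and BMP pathways fell as well. The nuclear receptor gene Pparg, the iron exporter gene Slc40a1, the monoglyceride lipase gene Mgll and the mRNA-decay factor gene Zfp36l1 rose. A gene was called changed when its adjusted p in the linear model (limma, Benjamini-Hochberg over all 19938 genes) was under 0.05, and "rose" and "fell" are used only of such genes. By that rule 515 genes rose (2.58% of those tested) and 359 fell (1.80%), or 874 in all (4.38%). The falls reached further than the rises. A log2 change of at least 1 was seen for 41 fallen and 16 risen genes, and one of at least 2 for 6 fallen genes and 0 risen ones. The median log2 change was 0.47 among the risen genes, -0.53 among the fallen genes and -0.00 over all genes, with a median standard error (SE) of 0.12. The 4 arrays of one time did not overlap with the 4 of the other in 2279 genes (11.4%).

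**Figure D1:**
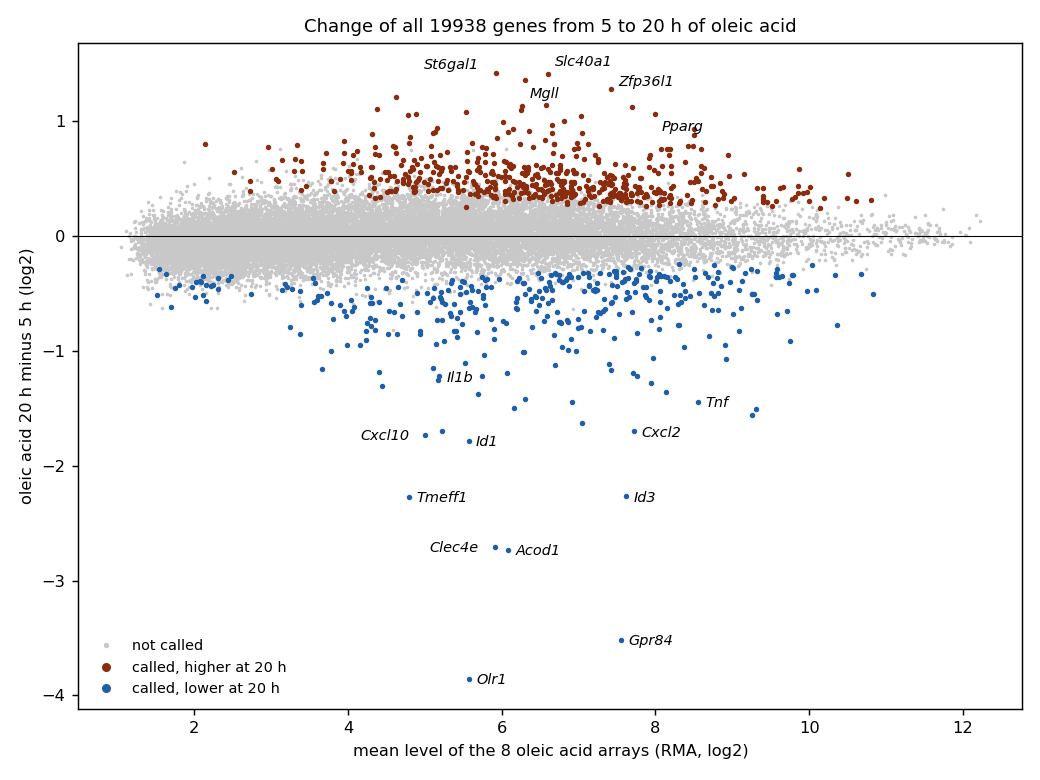
Log2 change from 5 to 20 h of oleic acid (y axis) against the mean log2 level of the 8 oleic acid arrays (x axis), 1 point per gene, with risen genes in brown, fallen genes in blue and the rest in grey. The 6 points below -2 are Olr1, Gpr84, Acod1, Clec4e, Tmeff1 and Id3, and no called gene lies above 2.

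All values are log2 expression from arrays after RMA, so a difference of 1 is a 2-fold change. Array medians over all 35556 probe sets ran from 3.98 to 4.12, no pair of arrays was identical, and replicates of a group correlated at 0.989 or more. Replicate 2 of 20 h stearic acid lay farthest from its group (SD of its deviations 0.215, against 0.129 to 0.185 for the other 22 arrays). The mean of its group enters only the values set beside stearic acid below. Its scatter enters the spread shared by all groups in the fit, and so the SE and adjusted p of every comparison. Its part in those of the oleic acid change was not tested by leaving out that array alone. Genes that mark macrophages were high on all 8 oleic acid arrays: Lyz2 (lysozyme) lay at 12.02 ± 0.04 (SD, n = 4) at 5 h and 12.03 ± 0.05 at 20 h, Cd68 at 11.42 ± 0.02 and 11.45 ± 0.01, and Tyrobp at 11.56 ± 0.01 and 11.55 ± 0.03. The receptor for M-CSF, Csf1r, lay at 10.24 ± 0.01 and 10.03 ± 0.05 (log2 change -0.21, SE 0.07, adjusted p = 0.104 in limma).

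Few genes were called different from vehicle at 5 h, where the change started, and a gene not called may still differ. Over the 45 gene lists used below, the median difference from vehicle at 5 h ran from -0.34 (sterol synthesis) to 0.08 (DNA replication and S phase). At 5 h oleic acid and vehicle differed in 14 genes (0.0702%), with 1128 genes at an unadjusted p under 0.05. The 4 higher genes (0.0201%) were Plin2, which encodes a lipid droplet coat protein, Cpt1a, the carnitine transferase that admits fatty acids to mitochondria, Angptl4, a secreted inhibitor of lipoprotein lipase, and the organic anion transporter gene Slco2b1, the last chosen for naming after its values were seen. The 10 lower genes (0.0502%) were the desaturase gene Scd2, the sterol genes Insig1, Idi1, Cyp51 and Hmgcs1, the chemokine genes Ccl3, Ccl4 and Ccl5, the acute-phase gene Saa3 and the interferon-stimulated gene Mx1. The count of 14 was 9 without vehicle replicate 2 and 7 without vehicle replicate 3.

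Of the 14, only Angptl4, Slco2b1 and Saa3 were called again between 5 and 20 h. Plin2 read 9.36, 9.51 and 9.45 on the vehicle arrays, 10.26, 10.33, 10.40 and 10.37 at 5 h, and 10.47, 10.41, 10.47 and 10.50 at 20 h. Its rise over vehicle at 5 h was 0.90 (SE 0.08, adjusted p = 2.08e-06, limma), and its change from 5 to 20 h was 0.13 (95% interval -0.03 to 0.28, adjusted p = 0.462). Cpt1a stood 0.99 above vehicle at 5 h and 0.89 above it at 20 h, with a change between the times of -0.10 (interval -0.29 to 0.09). Scd2 stood at -0.96 and -0.99 from vehicle, and Hmgcs1, the first committed enzyme of sterol synthesis, at -0.49 and -0.63. Angptl4 read 4.85, 4.50 and 4.73 with vehicle, 6.03, 5.88, 5.79 and 5.51 at 5 h, and 6.40, 6.35, 6.12 and 6.25 at 20 h, a change between the times of 0.48 (SE 0.12, adjusted p = 0.0217, limma). The call for Angptl4 was lost without replicate 3 or 4 of 5 h or replicate 1 or 2 of 20 h (adjusted p 0.0552 to 0.107). Slco2b1 rose by 0.72 (adjusted p = 0.000739, limma) and Saa3 fell by 1.01 (adjusted p = 1.77e-05).

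The cytokine and chemokine genes fell or were not called. Of 38 measured members of a list of inflammatory cytokines and chemokines, 13 fell, 0 rose, and the median log2 change was -0.24, where 1.80% of all genes fell and their median was -0.00. The arrays of the 2 times did not overlap in 15 of the 38, beside 11.4% of all genes, in either direction. Tnf, the macrophage's chief early cytokine, read 9.33, 9.29, 9.19 and 9.30 at 5 h and 7.93, 7.89, 7.73 and 7.80 at 20 h. All 4 late arrays of Tnf lay more than 1 log2 unit below all 4 early ones, and the gene fell by 1.44 on the log2 scale (2.72-fold lower, SE 0.08, adjusted p = 1.16e-11, limma). The neutrophil chemokine gene Cxcl2 read 8.62, 8.46, 8.59 and 8.61 at 5 h and 6.88, 6.85, 7.08 and 6.69 at 20 h, a fall of 1.70 (SE 0.10, adjusted p = 1.28e-11). Il1b, which encodes the precursor of interleukin-1 beta, read 5.94, 5.80, 5.59 and 5.87 and then 4.54, 4.95, 4.22 and 4.59, a fall of 1.22 (SE 0.15, adjusted p = 6.01e-06).

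Cxcl10, the interferon-induced chemokine gene, varied more among the early arrays than the others did. It read 6.27, 5.42, 5.65 and 6.13 at 5 h and 4.37, 4.09, 3.97 and 4.11 at 20 h, and fell by 1.73 (SE 0.16, adjusted p = 9.66e-08, limma). Falls under 1 log2 unit were called for Cxcl14 (0.87), Ccl22 (0.85), Ccl7 (0.81), Cxcl1 (0.77), Cxcl3 (0.72), Cxcl16 (0.63), Ccl2 (0.57), Ccl9 (0.34) and Pf4 (0.33). The early and late arrays of the monocyte chemokine gene Ccl2 overlapped (8.23 to 8.98 at 5 h, 7.87 to 8.27 at 20 h), and its adjusted p was 0.0368. The Ccl2 call was lost without replicate 1 or 3 of 5 h or replicate 1, 2 or 4 of 20 h (adjusted p 0.0789 to 0.136). It was also lost when only the 8 arrays compared were fitted (limma, adjusted p = 0.0899). The Ccl7 call was lost without replicate 2 of 20 h (0.0761). Il6 lay at 1.72 ± 0.24 and 1.60 ± 0.13, below all array medians, so its change (-0.11, adjusted p = 0.816) describes a gene near the bottom of the scale.

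The genes of NF-kB itself and of its feedback moved together with the cytokines. Of 21 measured members, 13 fell and 0 rose, and 19 had a negative change (median -0.38). Nfkbia, the inhibitor that NF-kB induces first, read 8.69, 8.46, 8.40 and 8.47 at 5 h and 7.59, 7.31, 7.37 and 7.50 at 20 h, and fell by 1.06 (2.09-fold lower, SE 0.09, adjusted p = 5.1e-08, limma). Tnfaip3, which encodes the deubiquitinating brake A20, fell by 0.97 (SE 0.08, adjusted p = 1.47e-08), Nfkbie by 0.83, Socs3, a brake on cytokine receptors, by 0.73 and the subunit gene Nfkb2 by 0.66. Among the DNA-binding subunits, Rel fell by 0.28 (adjusted p = 0.0305), while the values of Relb (-0.27, adjusted p = 0.25) and Rela (-0.16, adjusted p = 0.42) were not called.

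Receptors and enzymes of inflammatory macrophages held 3 of the 6 falls of over 2 log2 units. Of 28 measured members of this list, 14 fell and 2 rose, with a median of -0.49. Gpr84, a receptor for medium-chain fatty acids, read 9.39, 9.28, 9.29 and 9.29 at 5 h and 5.76, 5.78, 6.05 and 5.59 at 20 h, so that the 2 sets of arrays lay more than 3 log2 units apart. It fell by 3.52 (11.4-fold lower, SE 0.09, adjusted p = 8.58e-19, limma). Acod1 read 7.26, 7.50, 7.59 and 7.44 and then 4.77, 4.35, 4.93 and 4.81, a fall of 2.73 (6.65-fold lower, SE 0.12, adjusted p = 5.03e-14). Clec4e, the receptor Mincle for mycobacterial glycolipids and for dead cells, read 7.37, 7.31, 7.26 and 7.12 and then 4.39, 4.48, 4.47 and 4.88, a fall of 2.71 (6.53-fold lower, SE 0.11, adjusted p = 1.83e-14).

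Other members of that list fell by 1 to 2 log2 units. The cationic amino acid transporter gene Slc7a2 fell by 1.69, the C-type lectin gene Clec5a by 1.42, the costimulatory receptor gene Cd40 by 1.38, the mitochondrial superoxide dismutase gene Sod2 by 1.36, the prostaglandin E synthase gene Ptges by 1.25, the inflammasome sensor gene Nlrp3 by 1.19 and the bacterial lipoprotein receptor gene Tlr2 by 1.11. The LPS co-receptor gene Cd14 fell by 0.77 and the inducible cyclooxygenase gene Ptgs2 by 0.69. The 2 members that rose were the LPS receptor gene Tlr4 and the iron-binding lipocalin gene Lcn2. Tlr4 read 7.67, 7.49, 7.41 and 7.76 at 5 h and 8.33, 8.26, 8.32 and 8.23 at 20 h, a rise of 0.70 (SE 0.08, adjusted p = 4.21e-06, limma), so the receptor and its co-receptor went opposite ways. The Lcn2 rise of 0.59 was not called without replicate 3 of 5 h (adjusted p = 0.0571).

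**Figure D2:**
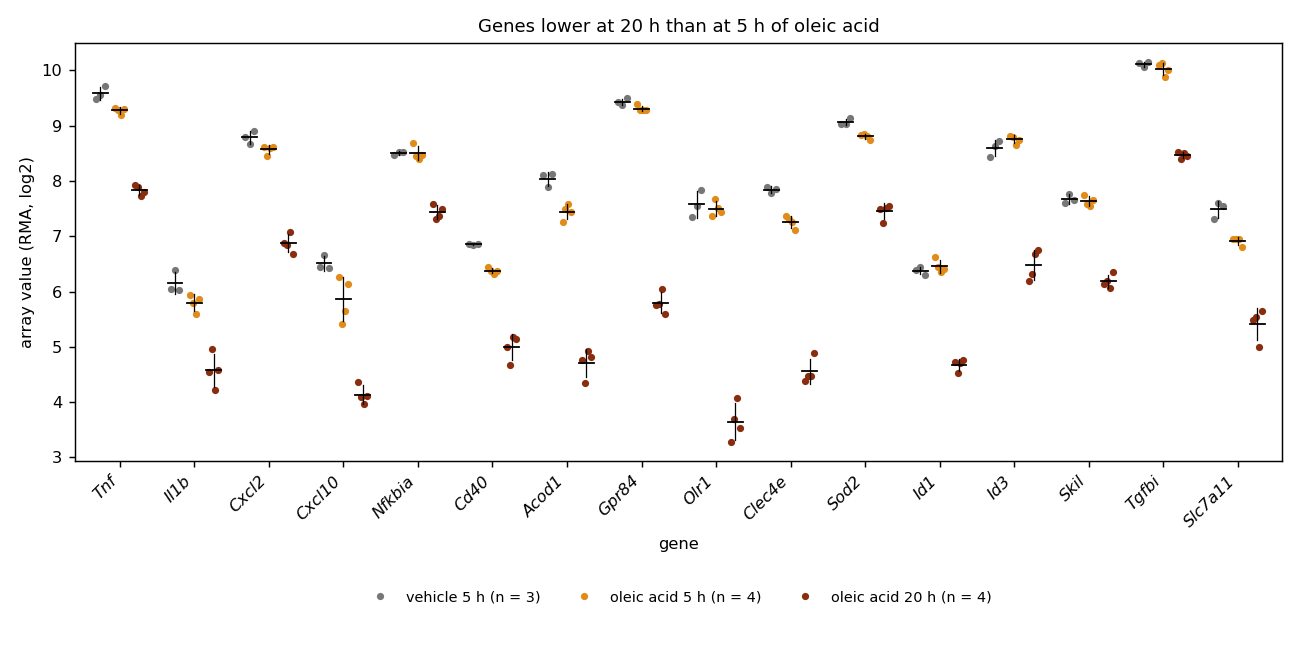
Array values (log2, y axis) of 16 fallen genes (x axis) with vehicle at 5 h (grey, n = 3), oleic acid at 5 h (orange, n = 4) and oleic acid at 20 h (brown, n = 4); points are arrays, horizontal bars are means and vertical bars are 1 SD. For all 16 genes the 20 h arrays lie below the vehicle and 5 h arrays, and for Gpr84, Olr1, Id1, Id3, Skil and Tgfbi the vehicle and 5 h means differ by at most 0.16. For Cxcl10, Slc7a11 and Cd40 the 5 h mean minus the vehicle mean is -0.64 to -0.48.

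The level at 20 h was below vehicle too, with the limit that this vehicle is of the early time. Set against the vehicle, Olr1 fell by 3.93, Gpr84 by 3.64 and Nfkbia by 1.06 at 20 h, and their differences from vehicle at 5 h were -0.07, -0.12 and -0.00. At 5 h other fallen genes stood farther from vehicle, with -0.64 for Cxcl10, -0.58 for Slc7a11, -0.48 for Cd40, -0.36 for Il1b and -0.31 for Tnf. Id1 gave 0.08, and none of these was called at 5 h. Of the cytokine list, 18 of 38 members were lower and 0 higher at 20 h than with vehicle (2.11% and 2.59% of all genes), and 3 were lower at 5 h. These comparisons share the vehicle and the oleic acid arrays with the main one and are given as values only. In bulk RNA, fewer cells of a type and less RNA per cell cannot be told apart, here and in every value that follows.

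Promoters of 4 of the fallen genes hold matches to a loose pattern for kappa B, the binding sequence of NF-kB. They are printed to show where the matches lie. The pattern was GGGA, any 4 bases, then CC, searched on both strands. The window was that of RefSeq, 250 bases before to 50 after the start of each gene, which is available for 15562 of the tested genes. The sequences are from RefSeq, build GRCm38.p6, are read 5′ to 3′ along the strand of the gene, stop before the start of the gene, and have the matches in capitals. That of Cxcl2 is chr5:90903762-90903852 (plus strand), with overlapping matches from 97 to 87 bases before the start. That of Cxcl10 is chr5:92348943-92349088 (minus strand), with matches that begin 159 and 103 bases before the start. That of Nfkbia is chr12:55492648-55492897 (minus strand), with matches that begin 212 and 29 bases before it, and that of Acod1 is chr14:103046917-103047006 (plus strand), with a match that begins 55 bases before it.
Cxcl2: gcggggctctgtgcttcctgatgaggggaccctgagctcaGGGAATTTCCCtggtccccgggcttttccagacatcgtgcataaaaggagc
Cxcl10: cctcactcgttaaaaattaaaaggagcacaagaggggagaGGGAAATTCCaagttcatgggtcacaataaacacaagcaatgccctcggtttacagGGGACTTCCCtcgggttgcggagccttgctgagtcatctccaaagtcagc
Nfkbia: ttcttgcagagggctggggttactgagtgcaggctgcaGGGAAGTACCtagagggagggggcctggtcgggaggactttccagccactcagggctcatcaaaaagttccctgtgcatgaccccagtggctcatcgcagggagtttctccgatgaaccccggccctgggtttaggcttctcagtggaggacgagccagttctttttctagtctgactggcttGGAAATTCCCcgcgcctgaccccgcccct
Acod1: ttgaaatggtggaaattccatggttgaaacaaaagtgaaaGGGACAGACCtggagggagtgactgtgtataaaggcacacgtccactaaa
Over the cytokine, NF-kB and receptor lists together, 40 genes fell, 33 of them had a window in the table, and 16 of those (48.5%) held the pattern. The share was 23.6% of all windows, 28.2% of the windows of fallen genes and 28.7% of those of risen genes. It was 41.9% of the windows of a list of mitosis genes, of which none was called in this comparison. The pattern leaves 4 bases free, so a match need not be a kappa B site. A match is a description of the letters and says nothing of binding.

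Interferon-stimulated genes fell in part and less evenly. Of 33 measured members, 8 fell and 0 rose (median -0.13): Ifit1 by 1.15, Ifit2 by 0.85, Rsad2 by 0.67, Gbp3 by 0.65, Ifit3 and Gbp5 by 0.60 each, Xaf1 by 0.34 and Slfn5 by 0.32. Ifit1, an inhibitor of the translation of viral RNA, read 6.00, 5.56, 5.25 and 5.88 at 5 h and 4.59, 4.62, 3.89 and 5.01 at 20 h, so the groups did not overlap although the late arrays spread over more than 1 log2 unit. The early and late arrays of Ifit2, Rsad2, Ifit3 and Xaf1 overlapped, and the Rsad2 call was lost without replicate 1 or 3 of 5 h or replicate 2 or 3 of 20 h (adjusted p 0.0547 to 0.0698). With only the 8 arrays compared in the limma fit, Rsad2 and Ifit2 were not called (adjusted p 0.0713 and 0.0643). The count of 8 became 4 without replicate 1 or 4 of 5 h, 5 without replicate 3 of 5 h, 4 without replicate 2 of 20 h and 3 without replicate 3 of 20 h, and it was 2 when only the 8 arrays compared were fitted.

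The Id genes and the regulators of TGF-beta and BMP signalling formed the other group with long falls. Id proteins bind the partners of helix-loop-helix factors and block them, and their genes are classic targets of BMP signals. Of 24 measured members of this list, 8 fell and 0 rose, with a median of -0.15, so the falls were long but few. Id3 read 8.82, 8.80, 8.66 and 8.74 at 5 h and 6.20, 6.31, 6.69 and 6.75 at 20 h, a fall of 2.27 (4.82-fold lower, SE 0.13, adjusted p = 1.16e-11, limma). Id1 read 6.62, 6.45, 6.35 and 6.42 and then 4.72, 4.52, 4.70 and 4.76, a fall of 1.78 (SE 0.11, adjusted p = 9.07e-11), and Id2 fell by 1.07. Neither Id1 nor Id3 had differed from vehicle at 5 h by the test (0.08 and 0.16).

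The remaining called members were targets and brakes of the pathway and 1 receptor. Tgfbi, an extracellular matrix protein named for its induction by TGF-beta, read 10.10, 10.13, 9.89 and 10.01 at 5 h and 8.53, 8.40, 8.50 and 8.46 at 20 h, a fall of 1.56 (SE 0.09, adjusted p = 3.39e-11, limma). The Smad co-repressor gene Skil fell by 1.45, and the inhibitory Smad genes Smad7 and Smad6 by 0.91 and 0.85. The type I receptor gene Tgfbr1 fell by 0.66. The ligand gene Tgfb1 (0.21, adjusted p = 0.245), the type II receptor gene Tgfbr2 (0.24, adjusted p = 0.13) and the signal transducer gene Smad3 (0.22, adjusted p = 0.314) gave positive values that were not called.

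Antioxidant genes that the factor NRF2 controls fell in smaller number. Of 27 measured targets 6 fell and 0 rose (median -0.10). Slc7a11, the cystine importer that feeds glutathione synthesis, read 6.95, 6.95, 6.95 and 6.80 at 5 h and 5.49, 5.54, 4.99 and 5.64 at 20 h, a fall of 1.49 (2.82-fold lower, SE 0.11, adjusted p = 1.99e-09, limma). Gclm, the regulatory subunit of the enzyme that starts glutathione synthesis, fell by 0.77 (SE 0.08, adjusted p = 9.74e-07). The thioredoxin reductase gene Txnrd1 fell by 0.55, the sulfiredoxin gene Srxn1 by 0.49, the autophagy receptor gene Sqstm1 by 0.47 and Nfe2l2, which encodes NRF2, by 0.26. The haem oxygenase gene Hmox1 (-0.14, adjusted p = 0.345) and Nqo1 (0.36, adjusted p = 0.454) were not called. Slc7a11 is also a target of ATF4, the factor of the amino acid response, and of 39 measured ATF4 and CHOP targets it and Cebpb (-0.40) fell while Ddit3, which encodes CHOP, rose by 0.44 (adjusted p = 0.00777). The Cebpb call (adjusted p = 0.043) was lost with the replicate block (0.0574), with only the 8 arrays compared (0.0793) and without any 1 array other than replicate 1 of 20 h (0.0766 to 0.169).

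Genes of glucose use and of the response to low oxygen fell where they changed, with 1 exception. Of 37 measured members 7 fell and 1 rose (median -0.09). The glucose transporter gene Slc2a1 read 8.77, 8.68, 8.58 and 8.72 at 5 h and 7.99, 7.89, 7.89 and 7.89 at 20 h, a fall of 0.77 (SE 0.08, adjusted p = 2.12e-07, limma). The angiogenic factor gene Vegfa fell by 0.76, the hexokinase gene Hk2 by 0.49, and Pgk1, P4ha1 and Pgam1 by 0.31 to 0.36, while the stress gene Ndrg1 rose by 0.72. The oxygen sensor gene Egln3 fell by 0.79, from 3.64 to 2.85, with both means below every array median. Its call was lost without replicate 1 of 5 h or replicate 1 or 2 of 20 h (adjusted p 0.0509 to 0.0753). Without replicate 2 of 20 h, 4 members fell. Of 25 immediate early genes, which growth factors induce within minutes, 4 fell (2 without replicate 1 of either time): Fos by 0.81, Klf10 by 0.68, Junb by 0.45 and Egr2 by 0.34. The Junb call was lost without replicate 1 or 2 of either time (adjusted p 0.0706 to 0.147), and the Egr2 call without replicate 1, 3 or 4 of either time (0.054 to 0.0941). Junb was also not called when only the 8 arrays compared were fitted (limma, adjusted p = 0.0618).

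Adhesion and matrix genes were split. Of 31 measured matrix metalloproteinases, inhibitors and integrins, 6 fell and 2 rose (median 0.01). The membrane-bound protease gene Mmp14 fell by 1.03, the fibronectin receptor gene Itga5 by 0.97, the adhesion molecule gene Icam1 by 0.86, the vitronectin receptor gene Itgav by 0.68, the collagenase gene Mmp13 by 0.65 and the leukocyte integrin gene Itgal by 0.55. The neutrophil collagenase gene Mmp8 rose by 0.93 and the thrombospondin gene Thbs1 by 0.33.

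Lipid genes changed little as groups after 5 h, with a few members well outside the rest. Of 33 measured genes of fatty acid oxidation and PPAR targets, 4 rose and 0 fell, and the median was 0.03. Pparg, the receptor that drives lipid uptake and storage genes and restrains inflammatory ones in macrophages, read 7.62, 7.44, 7.41 and 7.37 at 5 h and 8.47, 8.51, 8.55 and 8.55 at 20 h. Every late array of Pparg lay above every early one, and it rose by 1.06 (2.08-fold, SE 0.09, adjusted p = 7.1e-09, limma). The acyl-CoA thioesterase gene Acot2 rose by 0.61, Angptl4 by 0.48 and the fatty acid chaperone gene Fabp4 by 0.46 (adjusted p = 0.000903). Pdk4, the kinase that turns cells from glucose to fat, is a PPAR target too, but lay at 2.52 ± 0.22 and 2.51 ± 0.13, below all array medians.

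Storage and breakdown of triglyceride gave 3 rises and 1 fall among 29 measured genes (median 0.06). Mgll, which splits the last fatty acid from glycerol, read 5.92, 5.60, 5.46 and 5.82 at 5 h and 6.91, 6.80, 6.59 and 7.05 at 20 h, a rise of 1.14 (2.20-fold, SE 0.11, adjusted p = 3.4e-07, limma). The phosphatidate phosphatase gene Lpin1 rose by 0.60 and the cholesteryl ester hydrolase gene Nceh1 by 0.44, while Abhd5, the activator of the lipase that opens triglyceride, fell by 0.51 (adjusted p = 2.92e-05). That lipase, Pnpla2, gave 0.25 (adjusted p = 0.159). Without replicate 3 of 5 h the Lpin1 call was lost (adjusted p = 0.0552).

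Uptake genes included the longest fall of all. Olr1, a scavenger receptor for oxidised lipoprotein, read 7.36, 7.68, 7.52 and 7.45 at 5 h and 3.29, 3.70, 4.07 and 3.54 at 20 h, where 3 of its 4 late arrays lay below every array median. It fell by 3.85 on the log2 scale (adjusted p = 1.28e-11, limma), and because the late level lies near the bottom of the scale no fold is given for it. Among the 17 measured genes of fatty acid uptake and activation 4 fell and 2 rose (median -0.15): the binding protein gene Fabp3 fell by 0.74, the acyl-CoA synthetase gene Acsl4 by 0.37 and the scavenger receptor gene Msr1 by 0.29, while Fabp4 and the scavenger receptor gene Marco (0.49) rose. The Marco call was lost without replicate 4 of 5 h or replicate 1 of 20 h (adjusted p 0.0801 and 0.0835). It was also lost when only the 8 arrays compared were fitted (limma, adjusted p = 0.0572). Cd36, the main fatty acid receptor of macrophages, was high and level at 11.45 ± 0.10 and 11.40 ± 0.04 (interval of the change -0.22 to 0.11).

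Sterol synthesis was already low at 5 h and lower at 20 h for a few members. Of 18 measured enzymes 2 fell from 5 to 20 h, Hsd17b7 by 0.62 and the squalene synthase gene Fdft1 by 0.57, with a list median of -0.08. Set against vehicle, the median was -0.34 at 5 h (3 members lower) and -0.59 at 20 h (10 lower). Cholesterol efflux and LXR targets changed in both directions: of 13 measured, the exporter gene Abcg1 (0.58), the sterol hydroxylase gene Cyp27a1 (0.61) and Mertk (0.70) rose, and the apolipoprotein gene Apoc1 (-0.95) and Nr1h3 (-0.38), the gene of LXR alpha, fell. The other exporter gene, Abca1, gave -0.04 (interval -0.20 to 0.12). Without replicate 4 of 5 h the Cyp27a1 value was 0.45 and was not called (adjusted p = 0.074). Of the falls of Apoc1 and Nr1h3, only that of Apoc1 was left without any 1 of the 8 arrays. The calls of Hsd17b7 and Fdft1 were kept under every alternative.

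**Figure D3:**
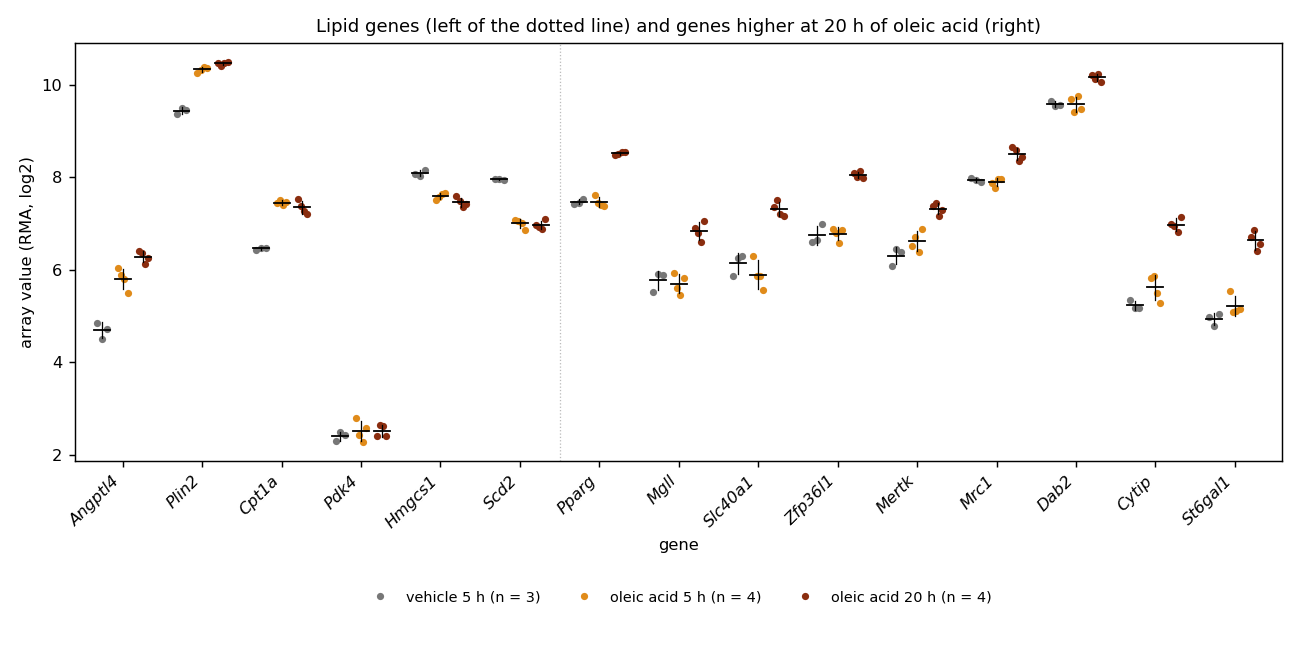
Array values (log2, y axis) of 6 lipid genes, left of the dotted line, and 9 genes that rose from 5 to 20 h, right of it (x axis), in the 3 groups and marks of the plot of fallen genes. Plin2, Cpt1a, Hmgcs1 and Scd2 part from vehicle at 5 h and stay level, whereas the 20 h arrays of Pparg, Mgll, Slc40a1 and Zfp36l1 lie above all vehicle and 5 h arrays.

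Iron genes that changed rose. Of 20 measured members 5 rose, beside 2.58% of all genes, with a median of 0.05. Slc40a1, which encodes ferroportin, the only known iron exporter, read 6.30, 5.87, 5.86 and 5.55 at 5 h and 7.35, 7.52, 7.21 and 7.17 at 20 h, a rise of 1.41 (2.66-fold, SE 0.14, adjusted p = 1.46e-07, limma). Lcn2 rose by 0.59, the haemoglobin scavenger gene Cd163 by 0.58, Ncoa4, which sends ferritin to the lysosome, by 0.55 and the ferrireductase gene Steap3 by 0.39. The ferritin chain genes Ftl1 (-0.02, adjusted p = 0.926) and Fth1 (0.04, adjusted p = 0.864) were level near the top of the scale. The early and late arrays of Cd163 overlapped (2.40 to 3.16 and 3.07 to 3.65, below the array medians), and its call was lost without replicate 2 of 5 h or replicate 1 of 20 h (adjusted p 0.0707 and 0.0744). Cd163 was also not called when only the 8 arrays compared were fitted (limma, adjusted p = 0.0945).

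Macrophage identity genes held both rises and falls, with changes from -1.22 (Cx3cr1) to 0.70 (Mertk). Of 26 measured members 5 rose and 3 fell (median 0.01). The fractalkine receptor gene Cx3cr1 read 8.41, 8.34, 8.29 and 8.42 at 5 h and 7.11, 7.14, 7.19 and 7.15 at 20 h, a fall of 1.22 with no array out of line (SE 0.12, adjusted p = 1.46e-07, limma), and Cd14 and Cd33 (0.47) fell as well. Mertk, a receptor for the uptake of dead cells, read 6.52, 6.71, 6.38 and 6.88 and then 7.38, 7.45, 7.16 and 7.29, a rise of 0.70 (SE 0.13, adjusted p = 0.000884). Fcgr1 (0.42), Maf (0.41), Irf8 (0.35) and Adgre1 (0.31) also rose. The count of 5 rises was 1 to 3 without any 1 of the 8 arrays and 1 with each array centred on its median.

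Of 26 measured genes of alternative activation and endocytic receptors 4 rose and 2 fell (median -0.08). The mannose receptor gene Mrc1 read 7.88, 7.78, 7.97 and 7.96 at 5 h and 8.65, 8.58, 8.36 and 8.44 at 20 h, a rise of 0.61 (SE 0.12, adjusted p = 0.00148, limma). The endocytic adaptor gene Dab2 rose by 0.58, Cd163 by 0.58 and Gas6, the ligand of Mertk, by 0.39, while the transglutaminase gene Tgm2 fell by 1.01 and Egr2 by 0.34. Arg1, the classic marker of alternative activation, lay at 3.70 ± 0.20 and 3.50 ± 0.21, below the array medians. The rise of Dab2 was 0.29 (adjusted p = 0.0865) when the probe sets of a gene were averaged, and was not called without replicate 2 or 4 of 5 h or replicate 1 or 3 of 20 h (0.0608 to 0.0789). The count of 4 rises was 1 without replicate 2 of 5 h and 2 without replicate 4 of 5 h or replicate 1 of 20 h.

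Antigen presentation genes showed small rises at the edge of the test. The class II genes Cd74 and H2-Ab1 rose by 0.39 (adjusted p = 0.043, limma) and 0.36 (adjusted p = 0.0387), with no overlap of early and late arrays for either. H2-Aa gave 0.35 (adjusted p = 0.0718) and H2-Eb1 0.30 (adjusted p = 0.125). The fall of Cd40 completed the calls among the 15 measured genes of class II and costimulation. The Cd74 call was lost without any 1 of the 8 arrays (adjusted p 0.0519 to 0.13) and the H2-Ab1 call without any 1 of 6 of them (0.0824 to 0.106; it was kept without replicate 4 of 5 h or replicate 2 of 20 h). Both calls were lost with array centring.

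The genes with the largest rises came from several functions. St6gal1, a sialyltransferase of the Golgi, read 5.53, 5.08, 5.11 and 5.15 at 5 h and 6.71, 6.87, 6.41 and 6.55 at 20 h, a rise of 1.42 (2.68-fold, SE 0.11, adjusted p = 6.4e-09, limma). Cytip, which encodes a scaffold of the cytohesin proteins, read 5.82, 5.86, 5.50 and 5.29 and then 6.99, 6.96, 6.82 and 7.15, a rise of 1.36 (SE 0.21, adjusted p = 0.000138). Zfp36l1, whose protein marks AU-rich mRNA for decay, read 6.88, 6.79, 6.58 and 6.87 at 5 h and 7.99 to 8.14 on the 4 arrays of 20 h, a rise of 1.28 (SE 0.16, adjusted p = 1.32e-05). The fibrinogen-like gene Fgl2 rose by 1.22, the endosomal sodium-proton exchanger gene Slc9a9 by 1.14, Arhgap18 by 1.13 and Kctd12b by 1.10. The probe set annotated to Mir340, a microRNA gene, rose by 1.10 (adjusted p = 0.000421), with 3.72 to 3.91 at 5 h and 4.61 to 5.45 at 20 h. All 4 early arrays lay below every array median, near the bottom of the scale, so the size of the rise is uncertain. Whether it measures the microRNA precursor or a longer transcript of the locus is not known here, and the arms of the microRNA were not measured apart. Among the largest falls, Tmeff1, a transmembrane protein with follistatin domains, read 5.78, 6.00, 6.03 and 5.92 at 5 h and 3.53, 3.59, 3.92 and 3.60 at 20 h, a fall of 2.27 (adjusted p = 3.65e-09). All 4 late arrays of Tmeff1 lay below every array median, so the size of its fall is uncertain too. The same holds for Apoc1, Cxcl3, Ptgs2, Gbp5, Vcam1 and Marco, each called with the mean of at least 1 of the times below every array median.

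Genes that cells switch on when growth signals weaken rose in part. Of 21 measured FoxO targets 4 rose and 1 fell (median 0.19). Sesn1, a sestrin that restrains mTOR, read 8.33, 8.21, 8.13 and 8.16 at 5 h and 8.96, 9.06, 8.97 and 8.88 at 20 h, a rise of 0.76 (SE 0.09, adjusted p = 2.59e-06, limma). Tsc22d3 rose by 0.56, the glucose-responsive gene Txnip by 0.37 and Foxo3 itself by 0.36, while Sod2 fell. Of 21 measured p53 targets Sesn1 and Polk (0.39) rose and Plk3 fell by 0.72.

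Several lists held 0 or 1 called member. Over all 19938 genes, 3225 had an unadjusted p under 0.05 (limma) for the change from 5 to 20 h of oleic acid. In the limma fit, 0 of 37 measured genes of mitosis and the spindle were called (4 at an unadjusted p under 0.05), with a median of 0.13 and 30 positive values, and 2 rose without replicate 1 of 5 h. The count was also 0 of 40 for the respiratory chain and ATP synthase (median -0.05, 5 at an unadjusted p under 0.05) and 0 of 17 for G1 cyclins and their inhibitors (median 0.03, 4 at an unadjusted p under 0.05). It was 0 of 16 for the Bcl2 family (median 0.11, 2 at an unadjusted p under 0.05), whose members license or block cell death. In the S phase list the helicase gene Mcm6 fell by 0.30, 1 of 39, and lost the call in 8 of 16 other settings. Of 24 chaperones and folding enzymes in the endoplasmic reticulum (ER), 22 had a negative value (median -0.17), and Pdia6, a disulfide isomerase, was the 1 called (fall of 0.41, adjusted p = 0.00129). Hspa5, the main chaperone there, read 9.44, 9.39, 9.42 and 9.39 at 5 h and 9.22, 9.23, 9.24 and 9.25 at 20 h. Its groups did not overlap, yet the change of -0.17 (interval -0.33 to -0.02) had an adjusted p of 0.231. Of 37 lysosome genes, 27 autophagy genes and 19 heat shock genes, 1 each was called (Atp6v0a1 0.43, Sqstm1 -0.47 and Dnajb4 -0.35), and the Dnajb4 call was lost without replicate 2, 3 or 4 of 5 h or replicate 1, 2 or 3 of 20 h (adjusted p 0.0688 to 0.093). Actin (Actb) gave 0.07 (adjusted p = 0.689).

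**Figure D4:**
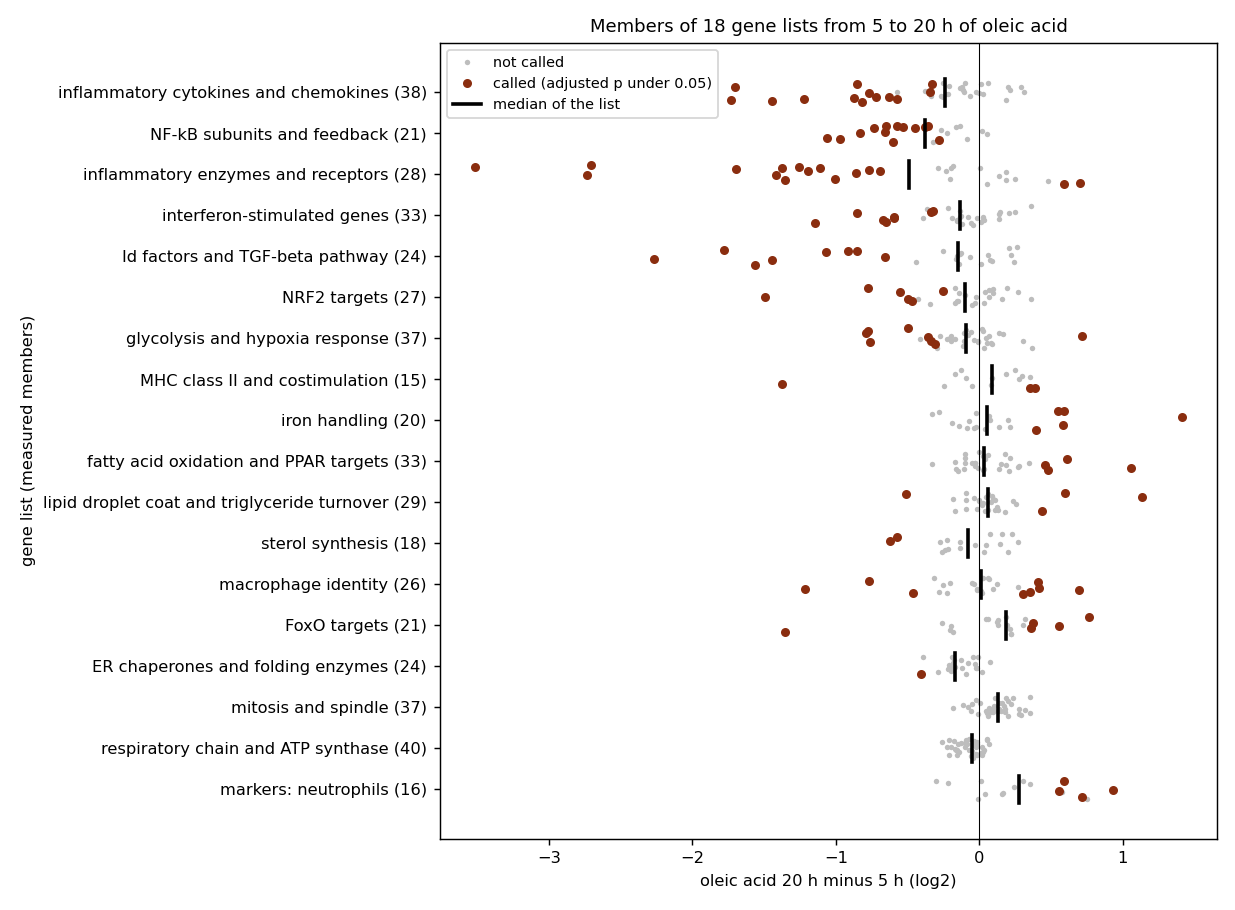
Log2 change from 5 to 20 h of oleic acid (x axis) of every measured member of 18 gene lists (y axis, number of measured members in brackets), with called members in brown, others in grey and the list median as a black bar. The medians of the NF-kB list (-0.38) and of the inflammatory enzymes and receptors (-0.49) lie farthest left, and the mitosis list (0.13) and respiratory chain list (-0.05) have no brown point.

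The same time step was measured under stearic acid at the same dose. From 5 to 20 h of stearic acid 1243 genes rose (6.23%) and 1309 fell (6.57%). The oleic and stearic acid time steps share no array. Of the 359 genes that fell with oleic acid, 246 (68.5%) also fell with stearic acid, which is 18.8% of the stearic acid falls. Of the 515 that rose, 203 (39.4%) also rose with stearic acid, which is 16.3% of its rises. A further 29 genes rose with oleic and fell with stearic acid, and 13 did the reverse. Across the 19938 genes, which are not independent replicates, the time changes correlated at r = 0.36 (Spearman's rank correlation 0.28), as a description.

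The difference between the time changes was tested as an interaction, and 992 genes were called (4.98%), 677 with a more positive change under oleic acid (3.40%) and 315 with a more negative one (1.58%). Of these, 228 were also called from 5 to 20 h of oleic acid and 764 were not. Without replicate 2 of 20 h stearic acid, the array that lay farthest from its group, 1026 genes were called. Among the called falls of oleic acid, 43 had a more negative change than with stearic acid by this test and 61 a more positive one, and the others were not called. Among the called rises 118 had a more positive change with oleic acid and 6 a more negative one, and the others were not called. Slc40a1 and Zfp36l1 were among the 118. Mgll rose by 1.14 with oleic and by 1.13 with stearic acid, St6gal1 by 1.42 and 1.56, Cytip by 1.36 and 1.06, and Pparg by 1.06 and 0.68. The interaction was called for none of Mgll, St6gal1, Cytip and Pparg (adjusted p 0.0772 to 0.998, limma).

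**Figure D5:**
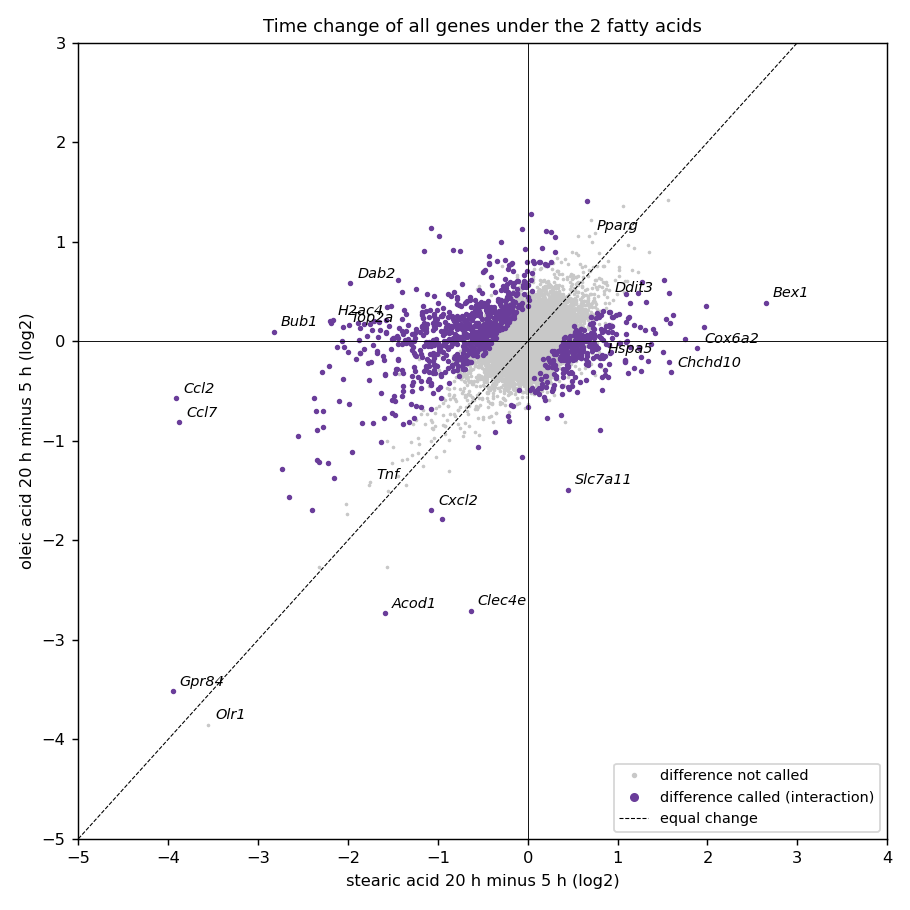
Log2 change from 5 to 20 h of oleic acid (y axis) against that of stearic acid (x axis), 1 point per gene, with genes called in the interaction in purple and the dashed line marking equal change. Olr1 and Tnf lie near the line, Ccl2, Ccl7, Bub1 and Dab2 far above it, and Clec4e and Slc7a11 far below it.

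Longer falls with oleic acid were seen for Clec4e, Slc7a11, Acod1, Gclm, Id1 and Cxcl2. Clec4e fell by 2.71 with oleic and by 0.64 with stearic acid, an interaction of -2.07 (adjusted p = 3.66e-09, limma). Slc7a11 fell by 1.49 with oleic acid and rose by 0.45 with stearic acid (interaction -1.94, adjusted p = 9.91e-09), and Gclm fell by 0.77 with oleic acid and gave 0.21 with stearic acid (interaction -0.99, adjusted p = 3.44e-06). Acod1 fell by 2.73 and 1.59 (interaction -1.14, adjusted p = 3.89e-05). The levels at 5 h differed between the acids. With oleic and stearic acid they were 6.91 and 8.50 for Slc7a11, 8.68 and 9.52 for Gclm, and 8.57 and 10.72 for Cxcl2. Id1 lay at 6.46 and 5.56 at 5 h and at 4.68 and 4.61 at 20 h. Of 27 NRF2 targets 11 had a more negative and 1, Hmox1, a more positive change with oleic acid.

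Most called differences among the cytokines and chemokines went the other way. Ccl2 fell by 0.57 with oleic and by 3.92 with stearic acid (interaction 3.34, adjusted p = 7.5e-10, limma), and Ccl7 by 0.81 and 3.88 (interaction 3.07, adjusted p = 4.71e-08). Of 38 cytokine and chemokine genes, 16 had a more positive change with oleic acid and 2, Cxcl2 and Csf1, a more negative one. The falls of Tnf (1.44 and 1.76, interaction 0.32, adjusted p = 0.124), Olr1 (3.85 and 3.55, interaction -0.30, adjusted p = 0.762) and Id3 (2.27 and 2.32, interaction 0.06, adjusted p = 0.947) were not called different between the acids.

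Mitosis genes parted the acids. All 37 fell with stearic acid (median -1.36), 0 were called with oleic acid, and the interaction was called in 35, all more positive with oleic acid. The other members, Ttk and Mad2l1, had interactions of 0.61 and 0.58 (adjusted p 0.0887 and 0.0515, limma). The spindle checkpoint kinase gene Bub1 read 6.04, 5.71, 5.94 and 5.73 at 5 h and 5.95, 5.89, 5.84 and 6.12 at 20 h of oleic acid, overlapping sets, while it fell by 2.83 with stearic acid (interaction 2.92, adjusted p = 9.19e-09, limma). The proliferation marker gene Mki67 gave -0.05 with oleic acid and fell by 2.12 with stearic acid (interaction 2.06), and the G1 cyclin gene Ccnd1 gave -0.31 (adjusted p = 0.192) and fell by 2.29 (interaction 1.97). The histone gene H2ac4, of the replication-dependent class, gave 0.20 and fell by 2.19 (interaction 2.40). The counts were 37 and 35 without replicate 2 of 20 h stearic acid too. Promoter windows exist for 31 of the mitosis genes, and 24 of them (77.4%, against 15.2% of all windows) held TTTGAA, the core of the cell cycle homology region, while 23 (74.2%, against 38.3%) held CCAAT, both searched on both strands.

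ER chaperones parted the acids in the other direction. With stearic acid 18 of 24 rose (median 0.55), with oleic acid 1 fell, and the interaction was called in 17, all more negative with oleic acid. Hspa5 rose by 0.81 with stearic acid (interaction -0.98, adjusted p = 5.6e-07, limma). Of 24 genes of ER-associated degradation 19 rose with stearic acid and 15 had a more negative change with oleic acid. Ddit3 rose with both, by 0.44 and 0.88, and this difference was not called (interaction -0.44, adjusted p = 0.0796).

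The endocytic adaptor gene Dab2 and the mannose receptor gene Mrc1 rose with oleic acid and fell with stearic acid. Dab2 rose by 0.58 with oleic acid and fell by 1.98 with stearic acid (interaction 2.56, adjusted p = 1.02e-08, limma; 1.21 with probe sets averaged), and Mrc1 rose by 0.61 and fell by 1.44 (interaction 2.05, adjusted p = 8.43e-09). Of 26 genes of alternative activation 10 had a more positive change with oleic acid and 0 a more negative one, and of 17 complement genes 8 and 0. C1qa, a chain of the first complement component, gave 0.22 with oleic acid and -2.17 with stearic acid (interaction 2.39, adjusted p = 3.56e-08). The class II genes Cd74, H2-Ab1, H2-Aa and H2-Eb1 had interactions of 0.62 to 0.91. Slc9a9 (interaction 2.21), Zfp36l1 (1.24) and Arhgap18 (1.19) were the members of the largest rises with the largest interactions. The negative interactions included Bex1, which gave 0.39 with oleic acid and rose by 2.65 with stearic acid (interaction -2.26, adjusted p = 7.66e-06), and the mitochondrial protein genes Cox6a2 (interaction -1.96) and Chchd10 (-1.90).

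Markers of other cells were mostly low and level, with part of the neutrophil list as the exception. Of 77 measured markers of neutrophils, dendritic cells, lymphocytes, erythroid cells, mast cells or basophils and stromal cells, 5 rose and 1 fell. The neutrophil list held 4 of the rises among its 16 members, of which 13 had a positive change (median 0.27): Mmp8 (0.93), Ltf (0.72), Lcn2 (0.59) and Ngp (0.55), genes of neutrophil granules. These 4 are 25% of the list, beside 2.58% of all genes that rose. Their group means at 5 and 20 h lay above every array median: 5.68 and 6.62 for Mmp8, 6.31 and 7.03 for Ltf, 8.34 and 8.93 for Lcn2, and 7.76 and 8.31 for Ngp. The mean log2 level of that list was 5.67 to 5.91 on the 5 h arrays and 6.04 to 6.13 on the 20 h arrays, which did not overlap. From 5 to 20 h of stearic acid 8 of the 16 rose (median 0.28), beside 6.23% of all genes. The interaction was called in 0 of them. The protease genes of early neutrophil granules, Elane, Prtn3 and Ctsg, and the surface marker gene Ly6g had group means of 2.65 to 3.84, below the array medians, as had 5 of the 16 members in all. The part of these markers in the other results was not tested. The other 2 calls were Tcf4, a dendritic cell gene (0.41), and the adhesion gene Vcam1 of the stromal list, which fell by 0.58. The Tcf4 call was lost without replicate 2 of 5 h (adjusted p = 0.0647).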

How the data were processed

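Gene expression was measured in 23 samples on single-colour arrays, after amplification of about 10 ng of RNA, in 6 groups. The deposited table holds log2 values that the authors made with RMA (background correction, quantile normalisation and probe-set summary), which the submitters' processing notes name beside limma, without versions or the role of limma. The genome build of the array's annotation is not given in the sources used here. Of 35556 probe sets, 21789 carried 1 gene symbol, 1621 several and 12146 were not in the annotation table. For 999 genes with several probe sets the one with the highest mean was kept, which left 19938 genes.

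All 23 arrays were fitted with 6 group means in limma 3.58.1 (R 4.3.3), with empirical Bayes moderation and Benjamini-Hochberg adjustment over all genes. The interaction is the oleic acid time change minus the stearic acid time change. Steps were tested on simulated data. The number of arrays limits precision. Promoters come from RefSeq (GRCm38.p6). Named genes were the 10 largest rises and falls with no overlap of arrays and a level above the median, up to 4 called members of each of 45 lists, 5 interactions in each direction, and fixed anchor genes, with other list members given beside their lists. The genes and lists were chosen with earlier results of these data known. Alternatives changed the variance model, scaling, array weights, dim-gene filter, probe-set choice, fitted arrays and replicate block, and left out each array.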

Additional observations from a re-analysis of the deposited data

Results flagged for a closer look

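Among the 128 named genes, single arrays stood far from the other 3 of their group in 10 of the 256 groups of 4 arrays examined, where chance alone gives about 1 in 20. At 5 h, replicate 1 was high for Gpr84 (9.39, nearest 9.29), Icam1 (7.36, nearest 7.05) and St6gal1 (5.53, nearest 5.15), and replicate 4 was low for Slc7a11 (6.80, nearest 6.95). At 20 h, replicate 4 was low for Ccr3 (6.07, nearest 6.51) and Mmp8 (6.26, nearest 6.72) and high for Polr1c (6.36, nearest 6.02). Also at 20 h, replicate 2 was high for Dusp7 (8.41, nearest 8.22), replicate 1 for Slc2a1 (7.99, nearest 7.89) and replicate 3 for Tmeff1 (3.92, nearest 3.60). For all of these but Polr1c, the arrays of 5 and 20 h did not overlap.

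The change from 5 to 20 h differed between oleic and stearic acid in 55 of the 128 named genes by the interaction test (limma, adjusted over all genes). More negative with oleic acid, on the log2 scale, were the stress and antioxidant genes Slc7a11 (-1.94), Gclm (-0.99) and Srxn1 (-0.52), the ER genes Pdia6 (-0.99), Hspa5 (-0.98) and Sec61b (-0.75), the receptor genes Clec4e (-2.07) and Cd33 (-0.74), and Acod1 (-1.14), Id1 (-0.83), Cxcl2 (-0.63), Bhlhe40 (-0.59) and Abhd5 (-0.59). More negative too were Bex1 (-2.26), Cox6a2 (-1.96) and Chchd10 (-1.90), which rose with stearic acid and were not called with oleic acid.

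More positive with oleic acid were the chemokine genes Ccl2 (3.34) and Ccl7 (3.07) and the cell cycle genes Bub1 (2.92), H2ac4 (2.40), Top2a (2.20), Ccna2 (2.07), Mki67 (2.06), Ccnd1 (1.97) and Mcm6 (0.85). Macrophage and antigen-presentation genes in this group were Dab2 (2.56), Mrc1 (2.05), Cx3cr1 (1.11), Cd74 (0.91), H2-Ab1 (0.83), Cd163 (0.73), Marco (0.61), Cd14 (0.49) and Csf1r (0.42). Inflammatory genes were Icam1 (1.42), Il1b (1.00), Cd40 (0.78), Slc7a2 (0.70) and Gpr84 (0.44). The others were Slc9a9 (2.21), the complement regulator gene Cfp (1.59), Ccr3 (1.35), Zfp36l1 (1.24), Arhgap18 (1.19), Tgfbi (1.09), the probe set annotated to Mir340 (0.90), Abca1 (0.88), Kctd12b (0.84), Slc40a1 (0.76), Tcf4 (0.73), Tgm2 (0.62), Sesn1 (0.54), Fads3 (0.52), Fos (0.51) and Hmox1 (0.47). Of the 55 differences, 49 were called under every alternative run for them (at most 24). The calls for Mir340, Bhlhe40 and Gpr84 were lost in 15 of them, those for Cd163 and Marco in 9 and that for Fads3 in 3. The lowest interaction over the alternatives was 1.00 for Top2a and 1.21 for Dab2, with the calls kept.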

How the results depend on the processing

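No named gene changed direction under the 16 alternatives run on the change from 5 to 20 h. Of 106 named genes called, 79 were called under every alternative and 27 were lost by at least 1, and of 22 not called 1, Csf1r, was gained (adjusted p = 0.00897 in limma with a variance trend). The count of 874 called genes was 652 to 1056 when 1 array was left out, 1160 with a variance trend and robust moderation, 765 (385 risen, 380 fallen) with each array centred on its median and 673 with only the 8 arrays compared. The interaction count of 992 was 874 to 1228 over its alternatives. The count of 14 between 5 h oleic acid and vehicle was 29 with a variance trend and robust moderation, 7 with only the arrays of those groups, and 7 to 16 when 1 array was left out. The count of 937 between 20 h oleic acid and vehicle was 1537 with array quality weights. Replicate numbers did not pair the samples: arrays of the same number correlated at 0.024 to 0.059 in their deviations, and only replicate 2 did so best with its own number. A fit with the replicate number as a block called 882 genes, 824 of them shared with the 874. Genes below the array medians, such as Il6, Pdk4, Arg1 and Nqo1, lie near the bottom of the signal range, where a change is hard to see.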
